A study of Bos taurus with 27 samples.

Results

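Loci whose RNA was abundant in bovine 8-cell embryos and nearly gone late in the same stage were described across 27 libraries of polyadenylated embryo RNA. A locus was taken when the median of its FPKM (fragments per kilobase of transcript, scaled to the mapped fragments of the library and summed over the transcripts of the locus) was at least 10 in 8-cell IVF libraries and at most 1 in late 8-cell IVF libraries, with fewer than 20 transcripts in the table. These values chose 106 of 116933 loci, so the drop between the IVF stages is the choice itself and is given without a test. The parthenotes had no part in the choice.

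The libraries came from 11 parthenotes at the 8-cell stage, 8 samples of in vitro fertilised (IVF) embryos late in that stage and 8 samples of IVF embryos at the 8-cell stage, all cultured in SOF medium under oil at 38.5 C. Both IVF groups were F1 crosses of Bos taurus and Bos indicus, and the parthenotes, which develop from an activated oocyte without a paternal genome, were Bos taurus. Parthenotes and late 8-cell IVF carry the request number 19058 and 8-cell IVF carries 18062, so breed cross and request both separate parthenotes from 8-cell IVF and cannot be told apart from parthenogenetic activation. Parthenotes and late 8-cell IVF differ in breed cross too, and also in the stage on the label, since parthenotes are labelled 8-cell and not late 8-cell. Activation, breed and stage cannot be told apart in that comparison. How many embryos went into a library is not in the labels, and neither is whether replicates were cultured apart. A p-value here therefore measures library-to-library spread, which may be technical.

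A growing oocyte stores messenger RNA and silences its genome before it is shed, and the embryo runs on that store for its first divisions. Stored RNA is removed in waves, in mouse and zebrafish partly by factors already in the egg and partly by factors the embryo must first transcribe, and removal usually begins with loss of the poly(A) tail. In cattle the main start of embryonic transcription falls around the 8-cell stage. Poly(A)-based libraries read RNA that still has a tail, so loss of the tail and loss of the RNA cannot be told apart here. FPKM is relative to the mapped fragments of a library and gives no amount per cell or per embryo. A value can therefore also fall when other loci take a larger share of the library. FPKM does not separate stored from newly made RNA either, so the 106 loci are described by level alone and not called stored.

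The identifiers pair no locus with a gene name, and 0 of them matched a RefSeq gene table (assembly ARS-UCD2.0). No role, position or sequence is therefore given for any locus, and markers of oocyte, embryo or follicle cells could not be read. Total read numbers are hidden by FPKM. Steps of whole reads among low values gave depths relative to the median library of 0.682 to 1.38 in parthenotes, 0.337 to 1.66 in late 8-cell IVF and 0.695 to 0.906 in 8-cell IVF. Among the late embryos, replicate 1 lay far from the other 7 libraries in its level over the set, though not in depth or at every locus. The levels of the set and the differences from late 8-cell IVF are given with and without it.

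The 106 loci were abundant but not among the most abundant. Their median was 10.06 to 43.3 FPKM in 8-cell IVF, with 74 loci under 15 FPKM and 12 at 20 FPKM or more, and the highest of them ranked 1049 among all loci by that median. Together they held 0.425% ± 0.0905 (SD, n = 11) of the FPKM sum in parthenotes. That share was 0.0623% ± 0.0932 (SD, n = 8) late in the IVF series and 0.505% ± 0.0571 (SD, n = 8) in 8-cell IVF. Without replicate 1 the late share was 0.0307% ± 0.0283 (SD, n = 7). A typical locus of the set, taken as the median over the 106 in a library, stood at 5.66 FPKM in the lowest, 11.1 FPKM in the median and 16.3 FPKM in the highest parthenote. In late 8-cell IVF it was 0 FPKM in the lowest, 0.546 FPKM in the median (0.5405 FPKM without replicate 1) and 6.78 FPKM in the highest library. In 8-cell IVF it was 11.5, 13.01 and 14.99 FPKM. Parthenotes thus spread below, within and above the range of 8-cell IVF, and a single late library, replicate 1, reached the level of the lowest parthenotes.

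**Figure D1:**
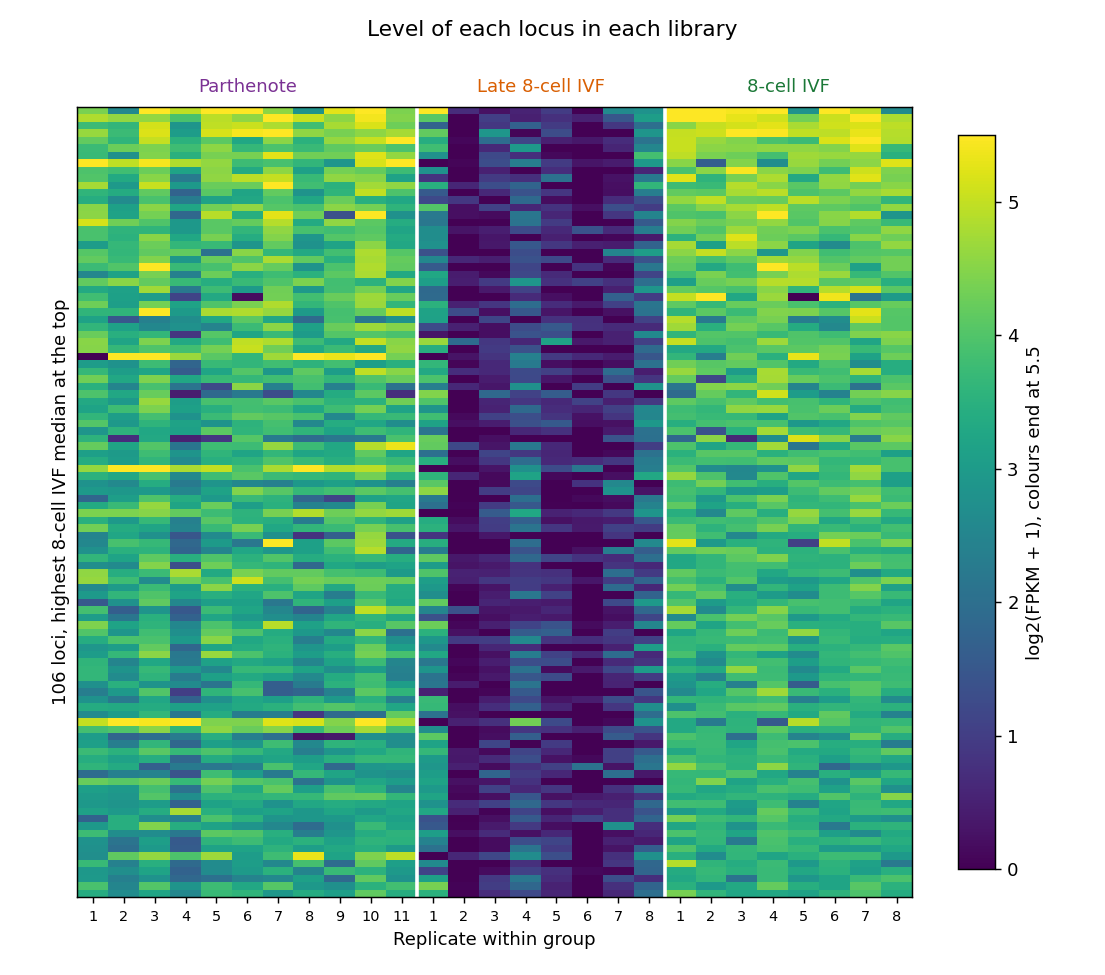
Level of each of the 106 loci (rows) in each of the 27 libraries (columns) as log2(FPKM + 1), with loci ordered by their 8-cell IVF median. Late 8-cell IVF replicates 2 to 8 are dark, whereas replicate 1 is at intermediate levels at most loci.

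**Figure D2:**
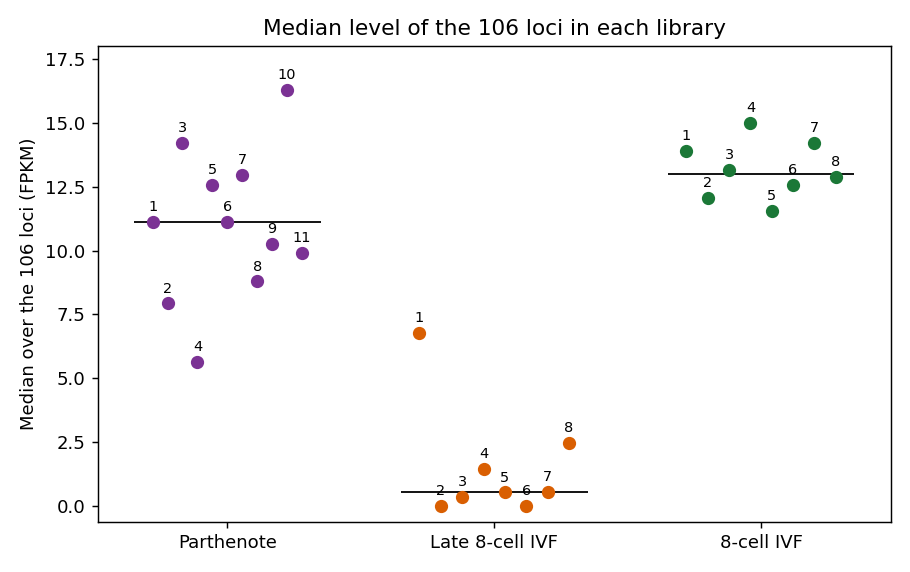
Median level over the 106 loci in FPKM for each library, numbered by replicate, with a line at the group's median. Parthenotes span 5.66 to 16.3 FPKM, late 8-cell IVF 0 to 6.78 FPKM and 8-cell IVF 11.5 to 14.99 FPKM.

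Among the late libraries the loci were not equally low. Late replicates 2 and 6 were lowest, with 47 and 62 loci at 0 and with 4 and 6 loci at 1 FPKM or more. Replicate 2 was among the deepest libraries, at a relative depth of 1.64, and replicate 6 was the shallowest, at 0.337, so a low level was seen at both ends of depth. Late replicates 4 and 8 were highest after replicate 1, with 73 and 75 loci at 1 FPKM or more, and 56 loci reached that level in both. Their median levels were 1.47 and 2.48 FPKM. Of the 106 loci, 54 had their highest value among late replicates 2 to 8 in replicate 8, 27 in replicate 4 and 14 in replicate 7. In these 7 libraries 103 loci never reached 10 FPKM, and 83 were below their lowest 8-cell IVF library each time.

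Late 8-cell IVF replicate 1 held 96 of the loci at 1 FPKM or more and 30 at 10 FPKM or more. The median ratio of its level to the 8-cell IVF median was 0.5001 over the 106 loci and 0.927 over the other 3759 loci with an 8-cell IVF median of at least 10 FPKM and fewer than 20 transcripts. In this library 55 loci were within or above the range of 8-cell IVF, 18 were at or above its median, and 15 were under 0.1 of it. In late replicates 2 to 8 the ratio ran from 0 to 0.181 over the 106 loci and from 0.432 to 0.614 over the other abundant loci. The 1107 loci that were on in late embryos (median under 0.1 FPKM in 8-cell IVF and at least 1 FPKM in late 8-cell IVF) made up 0.0377% of the FPKM sum in replicate 1, against 1.45% to 2.29% in the other late libraries. Whether this library differs in its stage was not tested.

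The most abundant locus, MSTRG.163, had 5 transcripts. Its level was 5.05 FPKM in the lowest, 30.6 FPKM in the median and 74.0 FPKM in the highest parthenote, against 0, 0.802 and 45.9 FPKM in late 8-cell IVF and 5.16, 43.3 and 55.7 FPKM in 8-cell IVF. The 45.9 FPKM came from late replicate 1, and no other late library exceeded 5.94 FPKM. MSTRG.23856 stood at 14.1 FPKM in the lowest, 23.4 FPKM in the median and 46.9 FPKM in the highest parthenote, at 0, 0.8745 and 15.9 FPKM in late 8-cell IVF, and at 19.2, 36.0 and 58.3 FPKM in 8-cell IVF. Its high late value was again replicate 1. MSTRG.60863, a locus with 1 transcript, behaved differently in that library. It was at 6.29, 26.7 and 35.2 FPKM in parthenotes (lowest, median, highest) and at 21.9, 32.3 and 38.0 FPKM in 8-cell IVF, yet at only 2.31 FPKM in late replicate 1, less than the 3.005 FPKM of late replicate 8. These loci thus stood at very different levels in the same late library. MSTRG.163 also ranged from 5.16 to 55.7 FPKM within 8-cell IVF, so its value there is uncertain as a trait of that library.

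Parthenotes were compared with late 8-cell IVF first. This asks how high these loci stood in parthenotes labelled 8-cell beside fertilised embryos labelled late in the stage. Every locus had a parthenote median above 1 FPKM, and 58 loci had one of 10 FPKM or more. A limma fit covered the 16221 loci that reached 1 FPKM in 8 or more libraries, as all 106 did. In it 104 of the 106 were higher in parthenotes and 0 lower (all 106 were higher and 0 lower at an unadjusted p under 0.05). Of all loci tested, 49.2% were higher and 21.7% lower, or 50.8% and 22.5% at an unadjusted p under 0.05. The late side was chosen to be low, so the count describes the parthenote levels and is not a test of the set. Fold changes were taken on log2(FPKM + 1), where those of low loci come out too small, and ran from 1.03 to 4.03 with a median of 2.40, against a median of 0.55 over all loci tested. Without late replicate 1 they ran from 1.47 to 3.85 with a median of 2.70, against 0.62 over all loci tested.

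Both loci that missed the threshold were high in late replicate 1, and both were among the 6 loci with a parthenote median under 5 FPKM. MSTRG.8845 had 0.412, 3.76 and 15.5 FPKM in the lowest, median and highest parthenote and 17.7 FPKM in late replicate 1, where the other late libraries were at 0 to 3.08 FPKM (adjusted p = 0.0573, limma). MSTRG.80556 had 0.196, 3.90 and 9.70 FPKM in parthenotes and 16.2 FPKM in late replicate 1, with the other late libraries at 0 to 2.18 FPKM (adjusted p = 0.0512, limma). MSTRG.34400 was at 21.1 FPKM in that library and passed narrowly (adjusted p = 0.041, limma, the largest among the loci that passed). It was called in 21 of 38 alternatives, with adjusted p from 0.00302 to 0.177. All 106 loci passed without late replicate 1, but also without 8-cell IVF replicate 3, with array weights and with a pseudocount of 0.1. Why MSTRG.8845 and MSTRG.80556 missed was not tested. At 0 loci did every parthenote lie below every late library (1.15% of all loci tested). At 22 loci every parthenote lay above every late library (3.09% of all loci tested), and at 60 loci when late replicate 1 was left out (16.7% of all loci tested).

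Examples show the size of the difference, given without a test because low late values chose the loci. MSTRG.91177 was at 7.78 FPKM in the lowest, 14.5 FPKM in the median and 22.7 FPKM in the highest parthenote, whereas late libraries were at 0, 0.210 and 5.88 FPKM, a log2 difference of 3.35 (SE 0.31), or 3.67 (SE 0.24) without late replicate 1. MSTRG.60863, which was low in late replicate 1, differed by 3.37 (SE 0.30), or 3.47 (SE 0.31) without that library. MSTRG.163, with its high value in late replicate 1, differed by 3.14 (SE 0.63), or 3.69 (SE 0.55) without it.

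Parthenotes were then set against 8-cell IVF, which asks whether the same RNA stands at a like relative level at the same cell number. The parthenote median was below the 8-cell IVF median at 89 of the 106 loci, or 84.0%, and at 59.7% of the other 3759 abundant loci. The ratio of the medians ran from 0.278 to 3.18 with a median of 0.793, against 0.939 over the other abundant loci. It lay between 0.5 and 2 at 94 loci, under 0.5 at 10 and over 2 at 2. All these loci had to reach a median of 10 FPKM in 8-cell IVF, which favours high values on that side. Only the 106 also had to be low in late 8-cell IVF, whose libraries share the request number 19058 with parthenotes. Their levels varied more among 8-cell IVF libraries than those of the other abundant loci. The sets were thus not chosen alike. The difference between them, and how much of it comes from the choice, was not tested. Over the 106 loci the rank correlation of the 2 medians was 0.58 (Spearman), a description across loci of the same libraries.

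Single loci rarely passed. By limma, 1 of the 106 was higher in parthenotes and 1 lower, against 1.47% and 0.419% of all loci tested, and these counts are too small to set apart from the background. At an unadjusted p under 0.05, 2 of the 106 were higher and 12 lower, against 11.8% and 5.4% of all loci tested. That looser count is not read as a trait of the 106, since the 2 sets were not chosen alike. The loci tested did not all have to reach a median of 10 FPKM in 8-cell IVF, a limit that favours lower calls. Among the other 3759 abundant loci, which met that limit, 267 were higher and 339 lower at an unadjusted p under 0.05. Lower calls thus outnumbered higher ones there too. Those loci did not have to be low in late 8-cell IVF, and the differences between the sets were not tested. Without late replicate 1 in the fit, 2 loci were higher and 2 lower after adjustment. At 0 loci was every parthenote above, or every parthenote below, every 8-cell IVF library (0.61% and 0.154% of all loci tested). A missed threshold does not show equal levels, since standard errors were as large as 0.63 on the log2 scale at MSTRG.163.

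**Figure D3:**
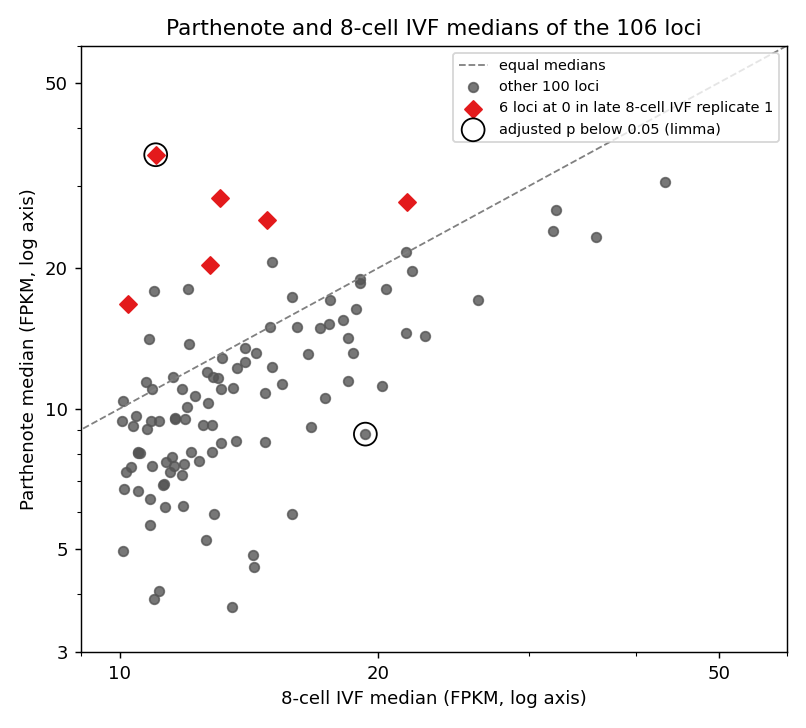
Median FPKM of each of the 106 loci in parthenotes (vertical, log axis) and in 8-cell IVF (horizontal, log axis), with a dashed line at equal medians. 89 loci lie below the line, and the 6 loci at 0 in late 8-cell IVF replicate 1 (diamonds) all lie above it, while rings mark the 2 loci past the limma threshold.

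The locus that was lower, MSTRG.6237, was assembled as 1 transcript. It stood at 3.99 FPKM in the lowest, 8.81 FPKM in the median and 17.96 FPKM in the highest parthenote, and at 11.3, 19.3 and 30.6 FPKM in 8-cell IVF. All 11 parthenotes were below the 8-cell IVF median and 8 were below every 8-cell IVF library. On the log2 scale the change was -1.04 (limma, SE 0.27, adjusted p = 0.0347). The call was lost without parthenote replicate 2, 4, 5 or 6 and without 8-cell IVF replicate 1, 2, 3, 5, 6 or 7. It was also lost with a pseudocount of 0.1, no filter on low values or a replicate block. It was made in 25 of 38 alternatives, with adjusted p from 0.00439 to 0.273 and the same direction in each.

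The locus that was higher, MSTRG.29101, had 4 transcripts. It stood at 20.6 FPKM in the lowest, 35.05 FPKM in the median and 99.7 FPKM in the highest parthenote, and at 1.93, 11.01 and 29.2 FPKM in 8-cell IVF. All 11 parthenotes exceeded the 8-cell IVF median and 7 exceeded every 8-cell IVF library. On the log2 scale the change was 1.88 (limma, SE 0.49, adjusted p = 0.0368). The call was lost without parthenote replicate 2, 4, 7 or 10 and without 8-cell IVF replicate 1, 2, 3, 4, 6 or 7. It was also lost with a pseudocount of 0.1, no filter on low values, median-of-ratios factors or a replicate block. It was made in 24 of 38 alternatives, with adjusted p from 0.004 to 0.164 and the same direction in each.

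MSTRG.29101 was 1 of 6 loci at 0 in late replicate 1, noticed after their values were seen and so given without a test. Late replicates 4 and 8 also had loci of the set at 0, 5 and 6 of them. Late 8-cell IVF replicate 1, which had most of the set at 1 FPKM or more, had 6 of the loci at 0: MSTRG.29101, MSTRG.105998, MSTRG.107196, MSTRG.61277, MSTRG.2640 and MSTRG.64047. All 6 had a higher median in parthenotes than in 8-cell IVF, against 11 of the other 100 loci. This was also seen outside the set, at 56 of the 69 other abundant loci at 0 in that library. The median ratio of parthenote to 8-cell IVF was 1.67 over the 6 and 0.767 over the 100. In each of the 6, late replicates 4 and 8 were the 2 highest late libraries, where the 0 in replicate 1 left only the others. How many of the other 100 loci share this was not counted. By the single highest of late replicates 2 to 8, replicate 8 led at 54 and replicate 4 at 27 of all 106 loci, the 6 included. The 6 loci had no consecutive locus numbers and from 1 to 13 transcripts.

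The values of these loci overlapped between parthenotes and 8-cell IVF in each case. MSTRG.105998 was at 14.2 FPKM in the lowest, 28.3 FPKM in the median and 77.1 FPKM in the highest parthenote, at 0, 0.8065 and 5.73 FPKM in late 8-cell IVF, and at 4.86, 13.1 and 25.7 FPKM in 8-cell IVF (log2 fold change against 8-cell IVF 1.39, SE 0.40, limma, adjusted p = 0.0645). MSTRG.107196 was at 0, 25.4 and 100.9 FPKM in parthenotes, at 0, 0.669 and 4.31 FPKM in late 8-cell IVF, and at 4.12, 14.9 and 38.8 FPKM in 8-cell IVF. Its 0 was parthenote replicate 1, the only parthenote without it. Of the 6 loci 4 were highest in parthenote replicate 8, 1 in replicate 2 and 1 in replicate 11.

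The last 3 were closer between the groups. MSTRG.61277 had 10.8, 20.3 and 28.02 FPKM in parthenotes and 4.98, 12.7 and 24.1 FPKM in 8-cell IVF. MSTRG.64047 had 5.63, 16.8 and 38.8 FPKM in parthenotes and 5.43, 10.2 and 12.6 FPKM in 8-cell IVF. MSTRG.2640 had 6.44, 27.8 and 48.4 FPKM in parthenotes and 2.12, 21.6 and 36.4 FPKM in 8-cell IVF. None of these 3 nor MSTRG.107196 passed the threshold against 8-cell IVF (adjusted p = 0.475, 0.316, 0.561 and 0.505, limma).

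**Figure D4:**
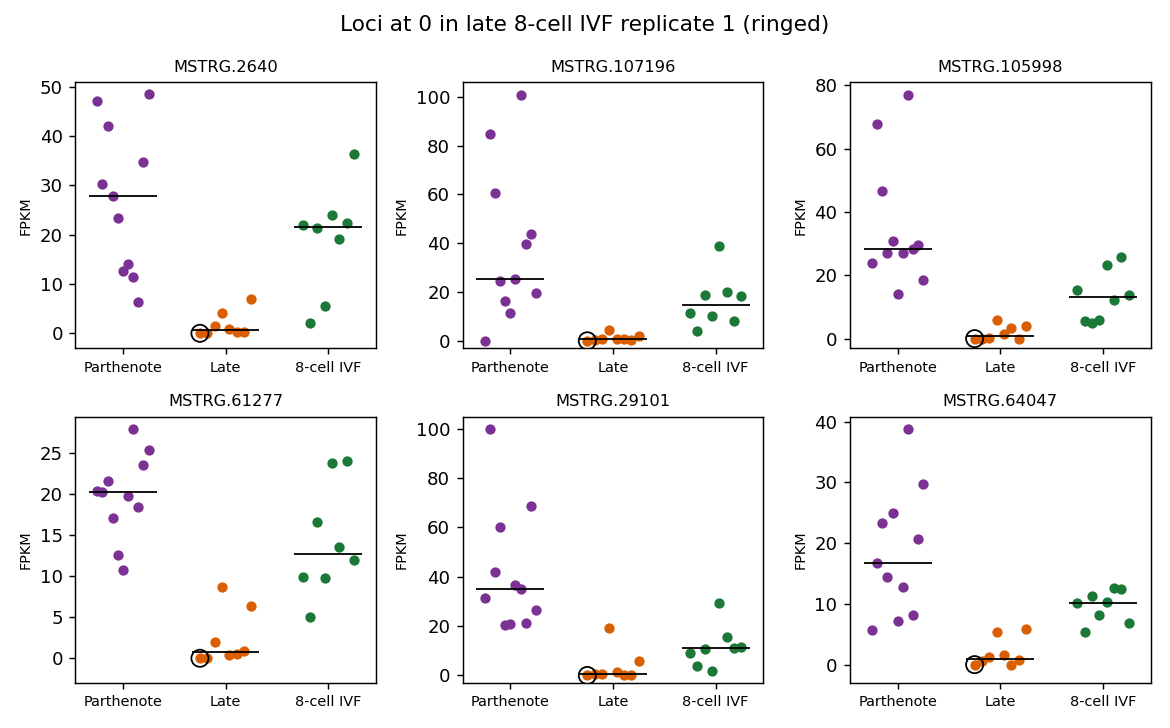
FPKM of the 6 loci that were at 0 in late 8-cell IVF replicate 1 (ringed), 1 panel a locus, with 1 point a library and a line at each group's median. In each panel the parthenote median is above the 8-cell IVF median, and the values of parthenotes and 8-cell IVF overlap.

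Parthenotes differed among themselves more than 8-cell IVF libraries did in the level of the set. The coefficient of variation of a locus had a median of 45.5% over the 11 parthenotes and 34.1% over the 8 IVF libraries of the 8-cell stage, against 33.05% and 22.002% for the other abundant loci. Differences in these spreads were not tested. Replicate 4 was the lowest parthenote, at a median of 5.66 FPKM, and 54 of the 106 loci had their lowest parthenote value there. Replicates 2 and 8 followed at 7.93 and 8.79 FPKM. In these 3 libraries 65, 45 and 42 loci (replicates 4, 2 and 8) were below their lowest 8-cell IVF value, against 8 to 30 in the other 8 parthenotes.

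Other abundant loci were lower in replicate 4 as well. Its level relative to the 8-cell IVF median was 0.383 over the 106 loci and 0.682 over the other abundant loci. In replicate 2 these ratios were 0.584 and 0.899, and in replicate 8 they were 0.639 and 0.872. At the other end replicate 10 had ratios of 1.09 and 0.992, and 29 loci had their highest parthenote value there. Relative depths were 1.09, 1.05 and 0.868 in replicates 4, 2 and 8 and 1.31 in replicate 10.

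The same 3 parthenotes had the largest shares from loci that were on in late embryos. These 1107 loci made up 0.273% of the FPKM sum in replicate 2, 0.131% in replicate 8 and 0.130% in replicate 4, and 0.0268% to 0.0960% in the other 8 parthenotes. All of these were far under the 1.45% to 2.29% of late replicates 2 to 8, and 8-cell IVF libraries were at 0.0106% to 0.0860%. No test was run on this pairing of low and high values, which was noticed in the data, and both sets were chosen on the IVF libraries alone.

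**Figure D5:**
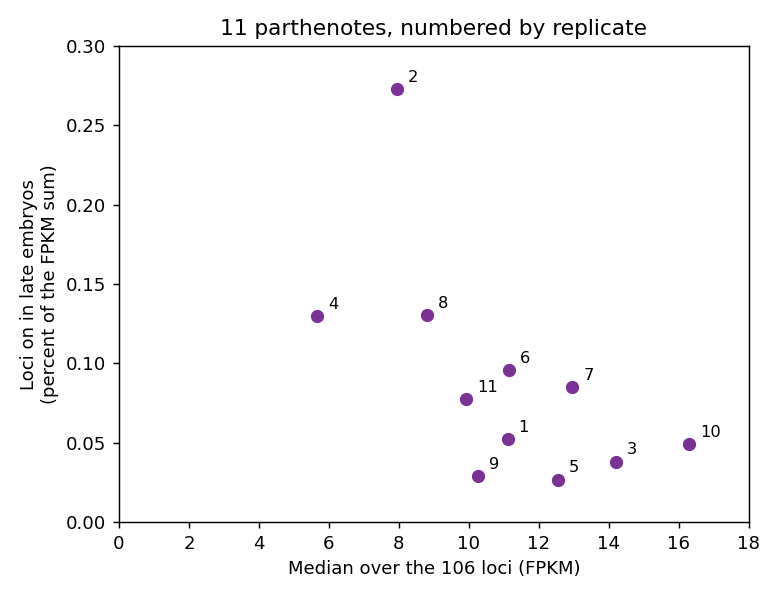
Each of the 11 parthenotes by its median level over the 106 loci (FPKM, horizontal) and the share of its FPKM sum held by loci that were on in late embryos (percent, vertical). Replicates 2, 4 and 8 combine the lowest medians, 5.66 to 8.79 FPKM, with the highest shares, 0.130% to 0.273%.

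In assembly the loci resembled other abundant loci. The 106 loci had 454 transcripts in all, from 1 to 16 each with a median of 3, against a median of 4 for the other abundant loci. A single transcript was assembled at 23 loci, 21.7%, against 22.0005% of the other abundant loci. At the 83 loci with several transcripts, the transcript with the highest mean in 8-cell IVF was also the highest in parthenotes at 80 and in late 8-cell IVF at 76. That transcript held a median of 37.0% of the locus in parthenotes, 37.1% in late 8-cell IVF and 36.9% in 8-cell IVF. Transcripts of a locus share reads, and late shares rest on low values, so single differences in leading transcript are uncertain.

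Some loci were not independent of each other. MSTRG.91176 and MSTRG.91177 have consecutive numbers and near-equal values, with medians of 14.2 and 14.5 FPKM in parthenotes, 0.162 and 0.210 FPKM in late 8-cell IVF and 18.5 and 21.6 FPKM in 8-cell IVF, and could hold the same reads. The loci numbered 11328 and 11329 form a second such pair. In all, 11 of the 106 had a locus within 5 numbers whose log2 profile over the 27 libraries correlated above 0.98, and for 7 of them that neighbour lay outside the set, 4 by the late limit and 3 by the 8-cell IVF limit. MSTRG.26763, for example, was chosen, while MSTRG.26761 had a late median of 1.16 FPKM and was not. Nothing in the labels says that strand was kept, so reads from opposite strands of overlapping loci could be mixed.

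The limits cut through a continuum. Just inside, MSTRG.58796 and MSTRG.34563 had 8-cell IVF medians of 10.06 and 10.09 FPKM, and MSTRG.61141 and MSTRG.34400 had late medians of 0.991 and 0.986 FPKM. Just outside, MSTRG.63287 and MSTRG.6304 had 8-cell IVF medians of 9.98 and 9.96 FPKM, and MSTRG.89305 and MSTRG.86437 had late medians of 1.01 FPKM each. The parthenote medians were 9.41, 10.4, 14.9 and 4.84 FPKM in the first 4 and 11.3, 8.68, 25.5 and 12.7 FPKM in the last 4.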

How the data were processed

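Polyadenylated RNA was made into libraries with the SMART-Seq v4 low-input kit and Nextera XT, per the labels' protocols. The authors deposited FPKM per assembled transcript for 173449 transcripts and 27 libraries. FastQC 0.10.1, TopHat2 2.1.0 and StringTie are named in the submitters' processing notes. The unit is taken from the name of the deposited table. What each tool did, the build and the annotation were not given in the sources used here. FPKM was summed over the transcripts of each locus. The test was limma 3.58.1 (R 4.3.3) on log2 of FPKM plus 1, two-sided, with all 3 groups in one fit, no covariates and trend and robust moderation. Benjamini-Hochberg adjustment ran over 16221 loci, with a threshold of 0.05. The fit and the depth estimate were run on simulated data, with outcomes not given here. The simulated depths were those estimated from these libraries, so that run does not check their values. Relative depth came from ratios of low values between libraries, and 95.4% of library pairs lay within 0.03 log2 of the fitted depths. For each pair the commonest ratio was used, which held a median of only 13.7% of the low values compared. Total depth is unknown, so no counting intervals are given. Other steps used Python 3.11.15, numpy 2.4.6, pandas 2.3.3 and matplotlib 3.10.9.

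Members and lists were chosen with earlier results of these data known. Named were the 3 loci highest in 8-cell IVF, those past the threshold against 8-cell IVF, the highest pair with consecutive numbers and those at the limits. The 2 that missed the threshold against late 8-cell IVF, the 6 at 0 in late 8-cell IVF replicate 1 and MSTRG.11328, MSTRG.11329, MSTRG.26761 and MSTRG.26763 were named after their values were seen. Alternatives were pseudocounts, filters, scalings, the highest transcript, fewer groups, array weights, a replicate block, other limits and leaving out each library.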

Additional observations from a re-analysis of the deposited data

Results flagged for a closer look

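Libraries that lay far from the rest of their group were sought in 42 sets of 8 libraries. The limit used marks about 1 in 20 sets of independent, normally distributed values. These sets share libraries and loci, and late values were chosen to be low, so that rate does not hold here. The search marked 15, a description and not a count set against chance. Late 8-cell IVF replicate 1 was far above the others in the share of the FPKM sum held by the 106 loci (0.2835%, next 0.0788%) and in their median level (6.78 FPKM, next 2.48 FPKM), and far below them in the share held by loci on in late embryos (0.0377%, next 1.45%). It was also far above at MSTRG.163 (45.9 FPKM), MSTRG.23856 (15.9 FPKM), MSTRG.91176 (5.46 FPKM), MSTRG.91177 (5.88 FPKM), MSTRG.58796 (10.4 FPKM), MSTRG.34563 (19.6 FPKM) and MSTRG.34400 (21.1 FPKM). Late 8-cell IVF replicate 4 was far above its group at MSTRG.29101 (19.1 FPKM, next 5.99 FPKM) and MSTRG.107196 (4.31 FPKM, next 1.76 FPKM), both loci at 0 in replicate 1. In 8-cell IVF, replicate 3 was far above its group at MSTRG.91176 (36.5 FPKM), and replicate 5 at MSTRG.107196 (38.8 FPKM) and in the share of loci on in late embryos (0.0860%).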

How the results depend on the processing

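The higher calls against late 8-cell IVF numbered 103 to 106 and the lower calls 0 under all 38 alternatives. The late side was chosen to be low, so this narrow range is not a test of the set. In the main fit 49.2% of all loci tested were higher, a share not given for the alternatives. Against 8-cell IVF the 1 higher and 1 lower call were fragile. Higher calls were 0 with a pseudocount of 0.1, with no filter, with median-of-ratios factors and with a replicate block, 2 with a pseudocount of 5, with the highest transcript and with only the 2 compared groups, and 3 with array weights. Lower calls were 0 with a pseudocount of 0.1 and with no filter, 2 with quantile normalization and with only the 2 compared groups, and 4 with array weights. Leaving out 1 library gave 0 to 2 calls in each direction. The causes were not tested. Neither MSTRG.29101 nor MSTRG.6237 passed with the replicate block, and the lower call made there was another locus. The replicate block left 104 calls against late 8-cell IVF, but same-numbered libraries share only a number: their deviations correlated at -0.33 to 0.22, and the best match of a library was its own number in 1, 1 and 2 of 8 cases for the 3 pairs of groups.

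The near-zero difference of MSTRG.163 against 8-cell IVF, 0.02 log2, changed sign to -0.0201 with rescaling, -0.0522 with median-of-ratios factors, -0.0194 with quantile normalization and -0.0895 with the replicate block, and ran from -0.29 to 0.24 when 1 library was left out, never past the threshold. The number of loci chosen was 527 and 12 at 8-cell IVF limits of 5 and 20 FPKM, 36 and 285 at late limits of 0.5 and 2 FPKM, and 17 with means in place of medians. Rescaling gave 156, median-of-ratios factors 83 and leaving out 1 library 77 to 157, the highest without late replicate 1 or 4. The median of all loci tested against late 8-cell IVF was 0.55 log2, and 0.62, 0.41 and 0.12 with rescaling, median-of-ratios factors and quantile normalization. Unknown total depth limits what a value of 0 means in single late libraries.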

Other observations

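Loci at 0 in late 8-cell IVF replicate 1 were also found outside the 106. Among the other 3759 abundant loci, 69 (1.84%) were at 0 in that library, against 5.66% of the 106. Of these 69, 56 had a higher median in parthenotes than in 8-cell IVF, as had all 6 of the 106. These counts were made after the values were seen and were not tested.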
